A study of Mus musculus with 24 samples.

Results

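The cholesterol synthesis and transport genes of mouse cerebellum form a set of 29 genes chosen by name from the 43430 genes of the deposited count table. They are the mevalonate and sterol enzymes, the SREBP regulators with a sterol carrier, the genes of sterol export and its nuclear receptor, and a pair of fatty acid enzymes under related control. All 29 were found in the table and all 29 passed the filter on low counts, with mean counts per library between 181 for Idi1 and 19568 for Scd2. The adult brain makes nearly all of its own cholesterol, because lipoproteins do not cross the blood-brain barrier. Cells build it from acetyl-CoA through mevalonate, farnesyl diphosphate, squalene and lanosterol. When membrane sterol is low, SCAP carries SREBP proteins from the endoplasmic reticulum to the Golgi for cleavage, and the freed factor raises transcription of the synthesis enzymes, while INSIG proteins hold the complex back when sterol is plentiful. Oligodendrocytes use large amounts of cholesterol for myelin, astrocytes export it to neurons, and neurons dispose of it as an oxysterol that activates liver X receptors.

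The libraries come from whole cerebellum of mice of about 7 weeks, with 6 mice in each of 4 genotype groups, 3 males and 3 females in each. The groups were conditional knockout mice that also expressed NDI1 (cKO+NDI1), conditional knockout mice (cKO), control mice expressing NDI1 (NDI1 control) and control mice with Cre alone (Cre control). NDI1 is the yeast NADH dehydrogenase, a single protein that oxidises NADH and passes electrons to ubiquinone without pumping protons, and so can stand in for the NADH-oxidising part of mitochondrial complex I. The series title describes the model as one of brain complex I dysfunction. The labels name neither the deleted gene nor the driver of Cre, nor do they say whether the NDI1 control mice carry Cre. The published model deletes Ndufs4, an accessory subunit of complex I, with a Nestin-driven Cre that acts in the precursors of neurons, astrocytes and oligodendrocytes, so that other cells of the tissue keep the gene.

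The promoters in which a sterol-related motif was found are printed here, because SREBP proteins and liver X receptors are known to act through such elements. Of the 29 genes, 23 had at least 1 promoter in the RefSeq table (GRCm38.p6), with 29 windows of 300 bases in all, from 250 bases before to 50 after a transcription start. Fdps, Fdft1, Sqle, Stard4, Abcg1 and Scd2 had no window there and were not searched. Capitals mark the sterol regulatory element searched as TCACNCCAC, or the liver X receptor repeat searched as GGTNA, any 5 bases and GGTNA again, each on both strands. Sequences run 5′ to 3′ on the strand of the gene.
Hmgcs1, chr13:119690101-119690400, plus strand: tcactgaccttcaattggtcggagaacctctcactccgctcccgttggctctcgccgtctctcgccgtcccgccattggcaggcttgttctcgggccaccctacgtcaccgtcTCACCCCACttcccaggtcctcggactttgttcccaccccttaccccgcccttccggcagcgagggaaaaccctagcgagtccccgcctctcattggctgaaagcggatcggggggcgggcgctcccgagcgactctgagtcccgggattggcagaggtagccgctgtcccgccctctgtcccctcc
Srebf1, chr11:60210422-60210721, minus strand: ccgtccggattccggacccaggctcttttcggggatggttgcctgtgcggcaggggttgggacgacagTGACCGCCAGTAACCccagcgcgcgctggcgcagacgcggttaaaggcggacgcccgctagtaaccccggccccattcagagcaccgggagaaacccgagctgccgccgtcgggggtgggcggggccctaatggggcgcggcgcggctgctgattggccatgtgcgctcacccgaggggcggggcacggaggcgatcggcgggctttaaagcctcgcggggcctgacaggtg
Abca1, chr4:53159846-53160145, minus strand: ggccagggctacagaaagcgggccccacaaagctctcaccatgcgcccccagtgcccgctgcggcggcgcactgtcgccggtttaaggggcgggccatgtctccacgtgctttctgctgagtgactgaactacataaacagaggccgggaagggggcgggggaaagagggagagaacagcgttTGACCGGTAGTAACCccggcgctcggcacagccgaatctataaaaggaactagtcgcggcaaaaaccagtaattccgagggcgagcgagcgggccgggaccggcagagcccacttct
Fasn, chr11:120824498-120824797, minus strand: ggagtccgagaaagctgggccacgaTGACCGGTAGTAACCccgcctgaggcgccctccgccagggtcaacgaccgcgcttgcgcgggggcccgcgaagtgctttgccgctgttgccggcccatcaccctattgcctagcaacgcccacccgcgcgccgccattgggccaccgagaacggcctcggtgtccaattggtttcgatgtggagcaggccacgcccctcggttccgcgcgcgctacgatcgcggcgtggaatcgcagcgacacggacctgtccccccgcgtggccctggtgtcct
Among the 23 genes searched, the sterol regulatory element occurred in the promoter of Hmgcs1 alone, the cytosolic HMG-CoA synthase. It began 137 bases upstream of the start, and 1.24% of all 32851 promoter windows held the element. With 1 mismatch allowed it occurred in 9 of the 29 windows (31.0%, against 24.2% of all windows), each of a different gene. The liver X receptor repeat occurred in 3 genes, beginning 182 bases upstream of the start in 1 of the 3 windows of Srebf1, 67 in Abca1 and 225 in Fasn, and 0.718% of all windows held it. Abca1 and Fasn carried the same letters there. The CCAAT box, searched as CCAAT, occurred in 20 of the 29 windows (69.0%, against 37.4% of all windows). The E-box, searched as CACGTG, occurred in 7 of the 29 windows (24.1%, against 7.15%), in the genes Hsd17b7, Sc5d, Dhcr7, Insig1, Scap and Abca1. The pair of Scap windows overlap and hold the same E-box, which is counted once for each. Of 14 pairs of different motifs within a window, 0 shared bases. These matches describe letters and were not tested as binding sites.

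Library totals ran from 7584374 to 19785264 counts, and mitochondrially encoded genes took 2.57% ± 0.370 of counts in cKO+NDI1, 2.78% ± 0.499 in cKO, 2.26% ± 0.360 in NDI1 control and 1.89% ± 0.241 in Cre control (SD, n = 6 each). Ndufs4 counts, which cover the whole gene and not only a deleted part, averaged 101 ± 15.1 CPM in cKO+NDI1, 95.4 ± 21.5 CPM in cKO, 144 ± 41.8 CPM in NDI1 control and 134 ± 23.6 CPM in Cre control (SD, n = 6 each), with overlapping ranges. The difference did not pass edgeR's test between cKO and Cre control (log2 fold change -0.47 ± 0.16 (SE), adjusted p = 0.0939) or between cKO+NDI1 and NDI1 control (-0.49 ± 0.16, adjusted p = 0.781). Levels below are CPM, counts scaled to a common library size, given as the lowest to the highest of 6 libraries with the median, and log2 fold changes carry their standard error. A gene passed when its Benjamini-Hochberg adjusted p from edgeR's quasi-likelihood F test, over 15300 genes, was under 0.05.

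Across the comparisons between genotypes, no change was detected in the 29 cholesterol genes at the threshold used. None of them passed the test in any of the 5 pairwise comparisons or in the interaction of knockout and NDI1, and in every one of the 5 the libraries of both groups overlapped for all 29 genes. Comparisons with a group in common share its 6 libraries. The fitted log2 fold changes lay between -0.33 for Hmgcs1 in cKO+NDI1 against Cre control and 0.39 for Tm7sf2 in NDI1 control against Cre control. The 95% interval of the fold change stayed within 0.5 on the log2 scale (1.41-fold) on either side of 0 for 28 of the 29 genes in cKO against Cre control, the exception being Abca1. It did so for 27 genes in cKO+NDI1 against cKO (exceptions Abca1 and Fasn), for 29 in cKO+NDI1 against NDI1 control, for 26 in cKO+NDI1 against Cre control (exceptions Hmgcs1, Tm7sf2 and Abca1) and for 26 in NDI1 control against Cre control (exceptions Tm7sf2, Scd2 and Abca1).

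**Figure D1:**
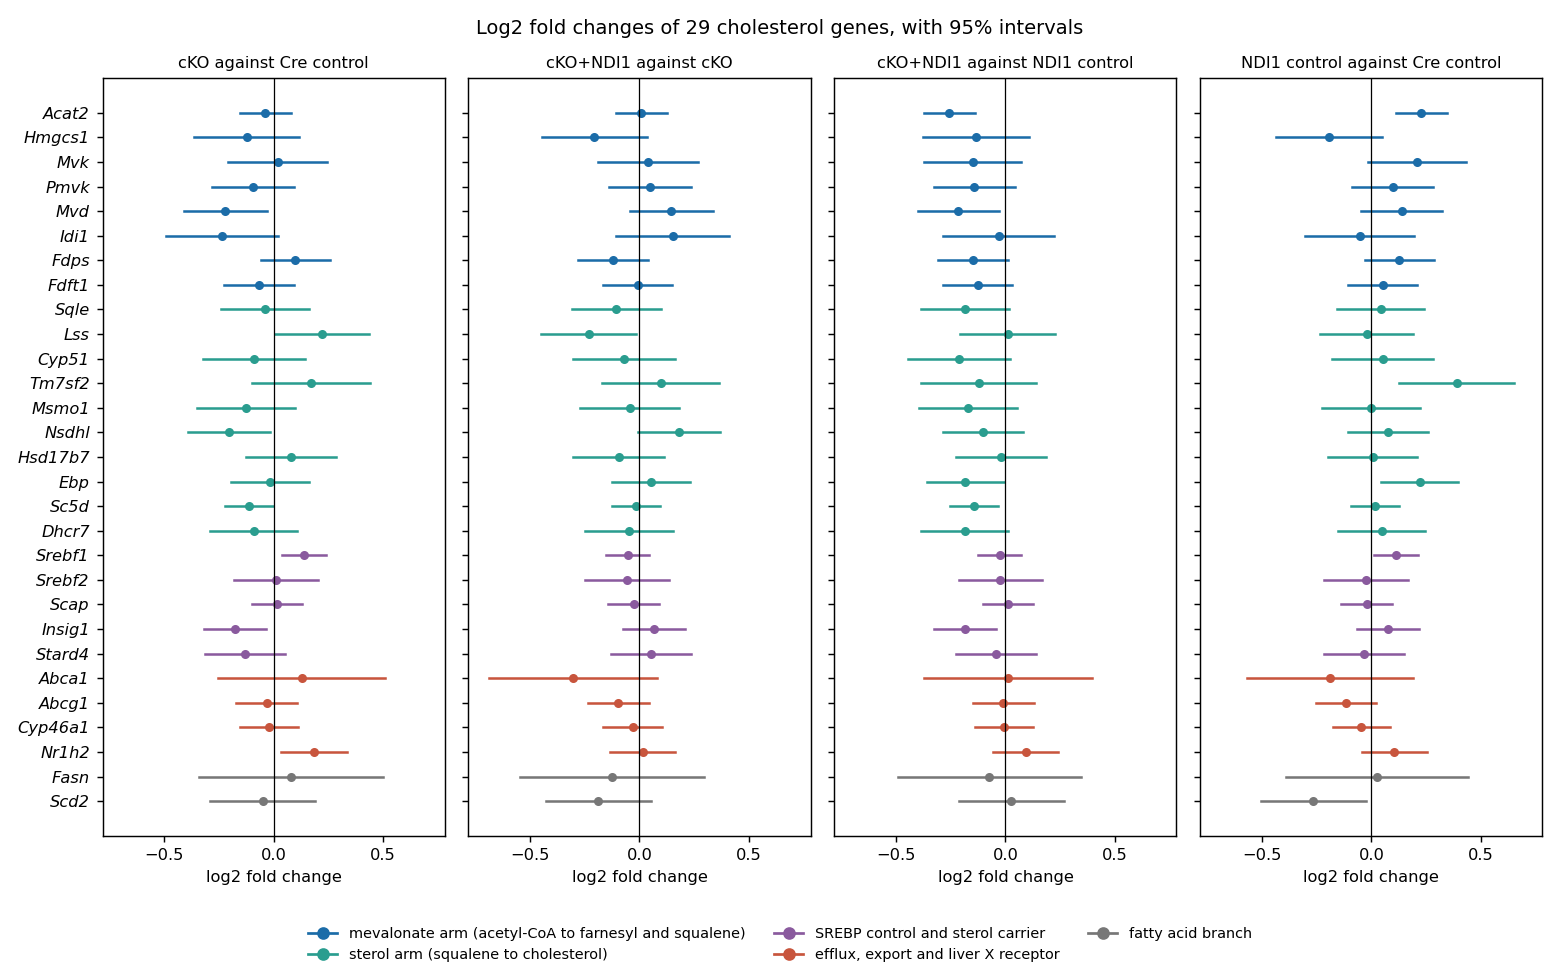
Log2 fold change (points) and 95% interval (bars) of the 29 genes in 4 comparisons, coloured by role. Nearly all intervals lie within 0.5 of 0, and those of Abca1, Fasn and Tm7sf2 are the widest.

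In cKO against Cre control, which asks what loss of the complex I subunit changed, most synthesis enzymes had slightly lower levels, without passing the test. Of the 18 enzymes from acetyl-CoA to cholesterol, 13 had a negative log2 fold change, with a median of -0.08. Over the 29 genes the median was -0.04 with 18 negative, and over all genes tested it was -0.01 with 51.9% negative. By edgeR 0 of the 29 passed, beside 4.87% of all genes tested, and 5 of the 29 (17.2%) had an unadjusted p under 0.05, beside 18.5% of all genes. The groups did not overlap for 2.69% of all genes and for 0 of the 29.

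The smallest p belonged to Srebf1, which encodes SREBP1, the SREBP better known for fatty acid genes. It had 55.6 to 74.8 CPM (median 67.7) in cKO and 53.9 to 66.3 CPM (median 60.5) in Cre control. Its log2 fold change was 0.14 ± 0.05 (adjusted p = 0.117). The 3 cKO males lay above the Cre control range of both sexes together and the 3 cKO females within it. The gene was higher in males in every group, so the sexes are better set apart. Males had means of 72.3 CPM in cKO and 64.7 CPM in Cre control, and females 60.8 CPM and 56.0 CPM. Insig1, which holds the SREBP complex in the endoplasmic reticulum and is itself an SREBP target, had 89.4 to 117 CPM (median 105) in cKO and 111 to 134 CPM (median 115) in Cre control. This gave a log2 fold change of -0.18 ± 0.07 (adjusted p = 0.179). Nr1h2, the gene of liver X receptor beta, had 65.5 to 78.2 CPM (median 73.1) in cKO and 56.6 to 69.7 CPM (median 65.6) in Cre control. The log2 fold change was 0.18 ± 0.08 (adjusted p = 0.179), and the ranges overlapped in each of these 3 genes. Mvd, the mevalonate diphosphate decarboxylase, had 20.9 to 33.6 CPM (median 25.3) in cKO and 27.5 to 35.2 CPM (median 28.6) in Cre control and a log2 fold change of -0.22 ± 0.10 (adjusted p = 0.209). Nsdhl, a dehydrogenase that helps remove the methyl groups of lanosterol, had a log2 fold change of -0.20 ± 0.10 (adjusted p = 0.246). Idi1, the isomerase that makes dimethylallyl diphosphate, gave -0.24 ± 0.13 (adjusted p = 0.352). Lss, which closes the sterol rings to give lanosterol, went the other way with 0.22 ± 0.11 (adjusted p = 0.289). The call of 0 depends on the method. DESeq2 called Srebf1 higher (adjusted p = 0.0412), 1 of the 29, while it called 1159 genes in all (7.58%), and limma-voom called 0 of the 29. A fit with 1 surrogate variable called 5 of the 29, while it called 3188 genes in all (20.8%). It called Srebf1, Lss and Nr1h2 higher and Mvd and Insig1 lower.

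**Figure D2:**
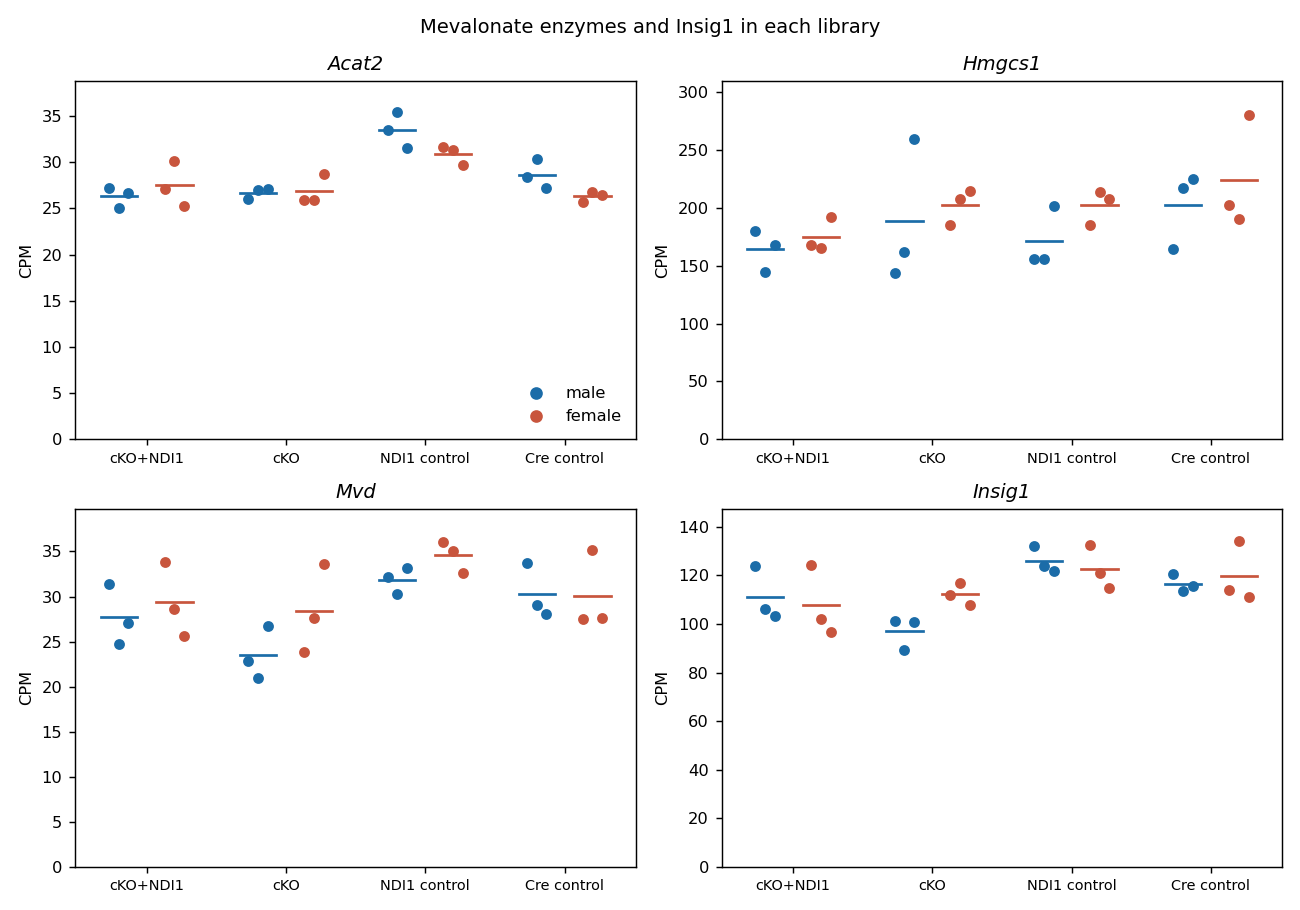
CPM of Acat2, Hmgcs1, Mvd and Insig1 in each library, by genotype group and sex (points, lines at the mean of 3 mice). Acat2 is highest in NDI1 control (median 31.6 CPM), with its lowest library there at 29.7 CPM, below the highest of cKO+NDI1 and of Cre control.

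The spread within the cKO group was wider than in the other groups for the enzymes as a class, and also for some lists of cell type markers. The mean log2 CPM of the 18 enzymes, set against the mean of the Cre control libraries, had an SD of 0.07 in cKO+NDI1, 0.19 in cKO, 0.06 in NDI1 control and 0.07 in Cre control. The cKO males M1 and M2 stood at -0.27 and -0.31 and the other 4 cKO libraries between -0.05 and 0.16. Both were below the other 4 cKO libraries in 13 of the 18 enzymes, a pair that was noticed after the values were seen. Library totals ran from 8665396 counts in M1 to 15901824 in M2 within cKO, and from 7584374 to 19785264 in cKO+NDI1. They ran from 14180056 to 17302266 in NDI1 control and from 13594761 to 18287435 in Cre control. The part of sequencing depth in the spread was not tested. The 18 enzymes summed to 747 CPM in M1 and 754 CPM in M2, against 902 to 1038 CPM in the other 4 cKO libraries and 883 to 1063 CPM in Cre control. The same 2 libraries had the lowest sums of 16 oligodendrocyte and myelin genes in the group, 12481 CPM in M1 and 12506 CPM in M2, against 12792 to 19559 CPM in the other 4 cKO libraries, and the part of this in the enzyme levels was not tested. The SD of the same measure was also largest in cKO for these oligodendrocyte and myelin genes (0.30, beside 0.07 to 0.12 in the other groups). So it was for the astrocyte list (0.08, beside 0.03 to 0.04) and the endothelial list (0.13, beside 0.06 to 0.07) described below. For the Purkinje cell and granule neuron lists it was not. In males alone the 29 genes had a median log2 fold change of -0.11 for cKO against Cre control with 19 negative, and in females alone -0.03 with 16 negative, with 0 called in each.

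**Figure D3:**
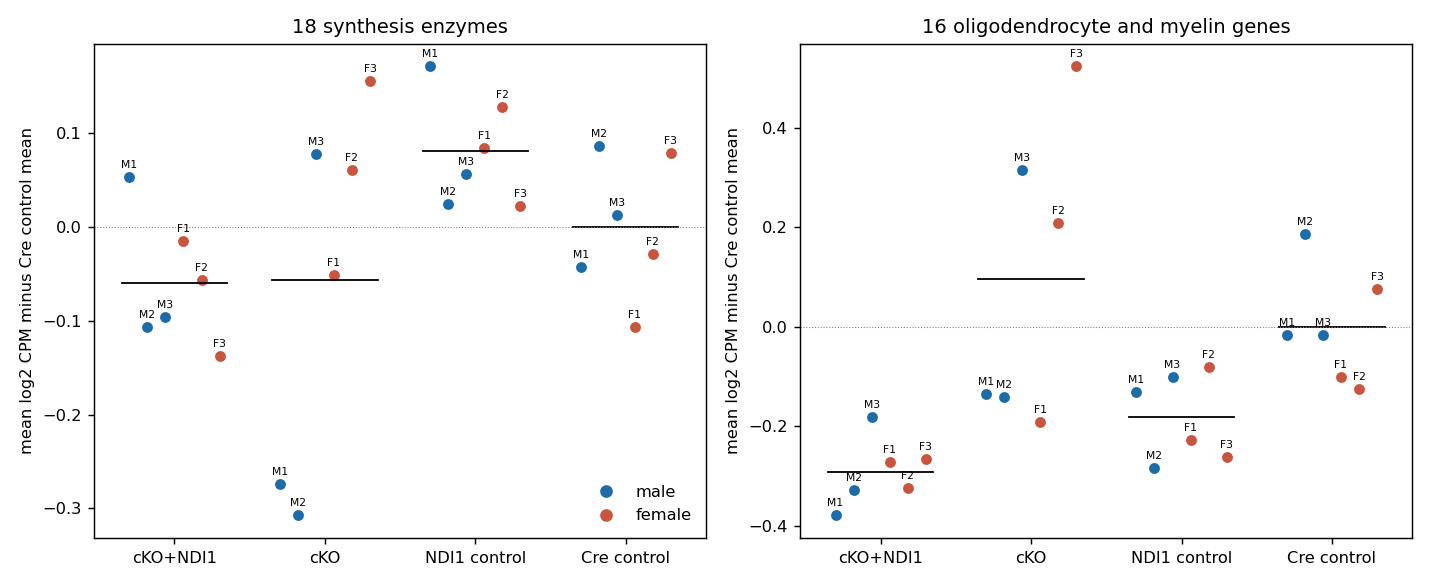
Mean log2 CPM of the 18 synthesis enzymes (left) and of 16 oligodendrocyte and myelin genes (right) in each library, minus the mean of the Cre control libraries; points are libraries, lines are group means. The cKO males M1 and M2 are lowest for the enzymes at -0.27 and -0.31, and the myelin genes are lowest in cKO+NDI1 at a mean of -0.29.

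In cKO+NDI1 against cKO, which asks what NDI1 changed in knockout mice, the enzymes of both arms split about evenly. Of the 18 enzymes 10 had a negative fold change and the median was -0.01. Over the 29 genes the median log2 fold change was -0.03 with 18 negative, beside -0.01 and 52.4% for all genes. The sexes taken alone leaned opposite ways. In males the median of the 29 was 0.05 with 10 negative, and in females -0.09 with 22 negative, with 0 called in each. The medians over all genes there were 0.004 and 0.006, and the difference between the sexes was not tested in this comparison. By edgeR 0 of the 29 passed, beside 0.209% of all genes, 1 of the 29 (3.45%) had an unadjusted p under 0.05 beside 8.56%, and DESeq2 and limma-voom also called 0. The groups did not overlap for 0.954% of all genes. That 1 gene was Lss, with 23.5 to 31.9 CPM (median 26.0) in cKO+NDI1 and 27.9 to 33.4 CPM (median 31.5) in cKO. The log2 fold change was -0.23 ± 0.11 (adjusted p = 0.563). Nsdhl had 17.6 to 21.3 CPM (median 19.1) in cKO+NDI1 and 13.7 to 20.5 CPM (median 16.8) in cKO, a log2 fold change of 0.18 ± 0.10 (adjusted p = 0.64). Hmgcs1 had 145 to 192 CPM (median 168) in cKO+NDI1 and 143 to 260.0 CPM (median 196) in cKO, a log2 fold change of -0.21 ± 0.12 (adjusted p = 0.7). The ranges of all 3 genes overlapped.

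Myelin genes, whose cells are large users of cholesterol, moved in this comparison. Of 16 oligodendrocyte and myelin genes all 16 had a negative log2 fold change, with a median of -0.44, and 5 fell, beside 0.124% of all genes called lower. Among those that fell, Tspan2 had -0.52 ± 0.08 (adjusted p = 0.00728), Mobp -0.62 ± 0.10 (adjusted p = 0.00728) and Mal -0.67 ± 0.11 (adjusted p = 0.0094). The 16 genes summed to 9946 to 11974 CPM in cKO+NDI1, 12481 to 19559 CPM in cKO, 10500 to 13120 CPM in NDI1 control and 13154 to 15332 CPM in Cre control, with no gene of the list at 0 in any library. Against Cre control 1 of the 16 rose in cKO, beside 3.06% of all genes called higher: Mal, at 0.42 ± 0.11 (adjusted p = 0.0271). The list had a median of 0.16 in that comparison, with 12 of 16 positive. Set against the same Cre control libraries, all 16 were negative in cKO+NDI1 with a median of -0.29, and 3 fell, beside 0.405% of all genes called lower. In NDI1 control against Cre control all 16 were negative too, with a median of -0.20, and 0 passed by edgeR, while 7 had an unadjusted p under 0.05, beside 9.2% of all genes. Whether the share of oligodendrocyte RNA bears on the cholesterol genes was not tested, and in whole tissue fewer cells of a type and less RNA per cell cannot be told apart. Of 14 astrocyte and Bergmann glia genes, 2 were lower in cKO than in Cre control, beside 1.81% of all genes called lower, Fabp7 with -0.97 ± 0.18 (adjusted p = 0.00211) and Slc1a3 with -0.28 ± 0.05 (adjusted p = 0.00262). The astrocyte genes summed to 9335 to 9844 CPM in cKO+NDI1, 9127 to 10225 CPM in cKO, 9944 to 11070 CPM in NDI1 control and 10065 to 11048 CPM in Cre control, with none at 0.

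Further cell types of the cerebellum were read from markers too, and the most abundant gene was Mbp, Aldoc, Car8, Cbln3 or Slco1a4 in the oligodendrocyte, astrocyte, Purkinje, granule neuron or endothelial list, and C1qa among the microglial genes. Of 8 endothelial genes, 2 had a negative log2 fold change in cKO against Cre control, beside 51.9% of all genes, with a median of 0.24. Of these 8, 1 rose, beside 3.06% of all genes called higher: Pecam1 at 0.76 ± 0.09 (adjusted p = 0.000151). Of the 6 Purkinje cell and 6 granule neuron genes 0 passed there, with the smallest p for Car8 at -0.19 ± 0.09 (adjusted p = 0.285) and Zic1 at 0.18 ± 0.08 (adjusted p = 0.228). Between cKO+NDI1 and cKO, 0 genes of the astrocyte, endothelial, Purkinje and granule lists passed. The smallest p there belonged to Fabp7 at 0.50 ± 0.17 (adjusted p = 0.337), Pecam1 at -0.30 ± 0.09 (adjusted p = 0.214), Car8 at 0.13 ± 0.09 (adjusted p = 0.779) and Neurod1 at -0.19 ± 0.08 (adjusted p = 0.452). Of 7 microglial genes 0 passed in any comparison by edgeR, with medians of -0.03 in cKO against Cre control and -0.02 in cKO+NDI1 against cKO, and with the smallest p for Tmem119 at 0.20 ± 0.11 (adjusted p = 0.335) and C1qb at 0.16 ± 0.11 (adjusted p = 0.756). All 7 were positive in cKO+NDI1 against NDI1 control with a median of 0.19.

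In cKO+NDI1 against NDI1 control, the knockout's difference where both groups carry NDI1, nearly all synthesis enzymes leaned to lower levels in the knockout. Of the 18 enzymes 17 had a negative log2 fold change with a median of -0.15, the exception being Lss at 0.01. Over the 29 genes 24 were negative with a median of -0.12, beside 53.1% and -0.01 for all genes. In males alone 16 of the 29 were negative with a median of -0.05, and in females alone 26 with a median of -0.14. With library size alone as the scaling, 20 were negative with a median of -0.09. By edgeR 0 of the 29 passed, beside 0% of all genes, 4 of the 29 (13.8%) had an unadjusted p under 0.05 beside 4.48%, and limma-voom called 0. The groups did not overlap for 0.314% of all genes.

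Acat2, the cytosolic acetoacetyl-CoA thiolase at the entry of the pathway, came closest. It had 25.0 to 30.1 CPM (median 26.9) in cKO+NDI1, 25.9 to 28.7 CPM (median 26.5) in cKO, 29.7 to 35.4 CPM (median 31.6) in NDI1 control and 25.7 to 30.3 CPM (median 27.0) in Cre control. The NDI1 control group was high, and it overlapped the others only in that 30.1 CPM in cKO+NDI1 F2 and 30.3 CPM in Cre control M2 lay above 29.7 CPM in NDI1 control F3. The log2 fold change was -0.26 ± 0.06 (adjusted p = 0.271), and its unadjusted p of 0.00023 ranked 13 among the 15300 genes. DESeq2 called it lower (adjusted p = 0.0366), as did the fit with 1 surrogate variable (adjusted p = 0.0265). Over all genes DESeq2 called 23 (0.150%) and the surrogate variable fit 56 (0.366%). Sc5d, which desaturates the sterol ring near the end of the pathway, had 79.0 to 85.7 CPM (median 81.5) in cKO+NDI1 and 85.5 to 97.5 CPM (median 90.5) in NDI1 control. This was a log2 fold change of -0.14 ± 0.06 (adjusted p = 0.937). Insig1 had 96.7 to 124 CPM (median 105) in cKO+NDI1 and 115 to 132 CPM (median 123) in NDI1 control, a log2 fold change of -0.18 ± 0.07 (adjusted p = 0.946), and its ranges overlapped. Acat3, a near copy of Acat2, averaged 0.930 CPM, and reads of one could be counted to the other.

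In NDI1 control against Cre control, which asks what NDI1 did without the knockout, the enzymes leaned to higher levels, again without passing. The labels do not say whether NDI1 control mice carry Cre. If they do not, a difference in Cre cannot be told apart from NDI1 here. It could not be told apart from the knockout in cKO+NDI1 against NDI1 control either, and would enter the interaction. Of the 18 enzymes 14 had a positive log2 fold change with a median of 0.05, and over the 29 genes 18 were positive with a median of 0.04, beside 0.01 for all genes. By edgeR 0 of the 29 passed, beside 0.00654% of all genes, 5 of the 29 (17.2%) had an unadjusted p under 0.05 beside 9.2%, and limma-voom called 0. The groups did not overlap for 0.386% of all genes. Acat2 had a log2 fold change of 0.23 ± 0.06 (adjusted p = 0.193), and DESeq2 (adjusted p = 0.0344) and the surrogate variable fit (adjusted p = 0.0402) called it higher. This value and that of cKO+NDI1 against NDI1 control share the 6 NDI1 control libraries. Tm7sf2, a sterol reductase whose gene overlaps Vps51 on the same strand, had 17.5 to 30.5 CPM (median 20.8) in NDI1 control and 14.3 to 19.6 CPM (median 17.4) in Cre control. The log2 fold change was 0.39 ± 0.13 (adjusted p = 0.376). Ebp, the sterol isomerase, had 43.3 to 59.0 CPM (median 48.3) in NDI1 control and 34.8 to 53.5 CPM (median 39.9) in Cre control, a log2 fold change of 0.22 ± 0.09 (adjusted p = 0.453). The surrogate variable fit also called Fasn higher (adjusted p = 0.0225) and Scd2 lower (adjusted p = 0.0496), which made 3 of the 29. Over all genes it called 268 (1.75%), and DESeq2 called 69 (0.451%).

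In cKO+NDI1 against Cre control, 15 of the 18 enzymes had a negative log2 fold change with a median of -0.06, and over the 29 genes 24 were negative with a median of -0.05. All genes had 51.2% negative. By edgeR 0 of the 29 passed, beside 1.25% of all genes, 3 of the 29 (10.3%) had an unadjusted p under 0.05 beside 13.5%, and DESeq2 and limma-voom called 0. The groups did not overlap for 1.58% of all genes. Hmgcs1, the enzyme that condenses acetoacetyl-CoA with acetyl-CoA, had 145 to 192 CPM (median 168) in cKO+NDI1 and 164 to 280.0 CPM (median 209.7) in Cre control. The groups overlapped, and the log2 fold change was -0.33 ± 0.12 (adjusted p = 0.21). Nr1h2 had 0.20 ± 0.08 (adjusted p = 0.224) and Sc5d -0.13 ± 0.06 (adjusted p = 0.301). The surrogate variable fit called 2 of the 29, Nr1h2 higher (adjusted p = 0.0191) and Scd2 lower (adjusted p = 0.00351). Over all genes it called 1598 (10.4%).

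The interaction, the difference between the knockout's effect with NDI1 and without it, was not detected for any of the 29 genes. By edgeR 0 passed, beside 0% of all genes, 3 of the 29 (10.3%) had an unadjusted p under 0.05 beside 5.18%, and DESeq2 and limma-voom called 0. Acat2 had -0.22 ± 0.08 (adjusted p = 0.852), Srebf1 -0.17 ± 0.07 (adjusted p = 0.915) and Fdps, the farnesyl diphosphate synthase, -0.25 ± 0.11 (adjusted p = 0.96). The 95% interval stayed within 0.5 of 0 for 24 of the 29, with Tm7sf2, Lss, Idi1, Fasn and Abca1 outside.

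Other enzymes followed the same ranges of change. Mvk and Pmvk, the mevalonate and phosphomevalonate kinases, had log2 fold changes of 0.02 ± 0.12 and -0.09 ± 0.10 in cKO against Cre control. Fdft1, the squalene synthase whose gene overlaps Ctsb on the opposite strand, gave -0.07 ± 0.08, and Ctsb itself was lower in cKO with -0.21 ± 0.06 (adjusted p = 0.0387). Sqle, the squalene epoxidase, gave -0.04 ± 0.10, and Cyp51, the lanosterol demethylase, gave -0.09 ± 0.12. Msmo1, the methylsterol oxidase, gave -0.13 ± 0.11, Hsd17b7, a sterol ketoreductase, gave 0.08 ± 0.10, and Dhcr7, the reductase that makes cholesterol from 7-dehydrocholesterol, gave -0.09 ± 0.10.

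The regulators other than Srebf1 and Insig1 hardly differed between groups. Srebf2, the main SREBP of the cholesterol enzymes, had 115 to 136 CPM (median 125) in cKO+NDI1, 115 to 155 CPM (median 124) in cKO, 104 to 150.1 CPM (median 128) in NDI1 control and 113 to 167 CPM (median 124) in Cre control. Scap, the escort of SREBP proteins, had 71.6 to 78.6 CPM (median 75.6) in cKO+NDI1, 71.3 to 85.6 CPM (median 75.8) in cKO, 65.0 to 83.2 CPM (median 74.3) in NDI1 control and 72.0 to 79.9 CPM (median 74.7) in Cre control. Their log2 fold changes in cKO against Cre control were 0.01 ± 0.10 for Srebf2 and 0.02 ± 0.06 for Scap, and all 4 groups overlapped in each. Stard4, a carrier of sterol between membranes, had 46.7 to 55.6 CPM (median 52.1) in cKO+NDI1, 44.3 to 56.7 CPM (median 48.6) in cKO, 44.6 to 61.1 CPM (median 51.7) in NDI1 control and 41.1 to 63.2 CPM (median 56.2) in Cre control. In cKO against Cre control the log2 fold change was -0.13 ± 0.09 (adjusted p = 0.511).

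Abca1 and Fasn varied most of the set from mouse to mouse. Abca1, the pump that loads cholesterol onto lipoproteins, had 27.3 to 45.4 CPM (median 34.4) in cKO+NDI1, 27.6 to 59.8 CPM (median 42.6) in cKO, 24.0 to 47.0 CPM (median 34.1) in NDI1 control and 26.8 to 55.0 CPM (median 37.2) in Cre control. Its log2 fold change was 0.13 ± 0.19 in cKO against Cre control and -0.30 ± 0.20 in cKO+NDI1 against cKO (adjusted p = 0.734). Abcg1, a further sterol exporter, had 106 to 117 CPM (median 109) in cKO+NDI1, 107 to 136 CPM (median 117) in cKO, 94.9 to 123 CPM (median 114) in NDI1 control and 113 to 135 CPM (median 119.6) in Cre control. Cyp46a1, the neuronal enzyme that makes the oxysterol by which brain cholesterol leaves, had 38.9 to 47.1 CPM (median 42.5) in cKO+NDI1, 39.4 to 51.0 CPM (median 42.2) in cKO, 39.8 to 46.0 CPM (median 42.8) in NDI1 control and 40.0 to 49.3 CPM (median 43.3) in Cre control, with a log2 fold change of -0.02 ± 0.07 in cKO against Cre control. In the fatty acid branch, Fasn, the fatty acid synthase, had 111 to 176 CPM (median 125) in cKO+NDI1, 112 to 187 CPM (median 149) in cKO, 80.8 to 188 CPM (median 155) in NDI1 control and 93.6 to 228 CPM (median 119.5) in Cre control. Scd2, a brain stearoyl-CoA desaturase with Scd1 as a close relative, had 1122 to 1536 CPM (median 1188) in cKO+NDI1, 1284 to 1703 CPM (median 1372) in cKO, 931 to 1511 CPM (median 1309) in NDI1 control and 1103 to 1840.0 CPM (median 1505) in Cre control. After the model of genotype and sex, the residual SD of log2 CPM was 0.41 for Fasn and 0.37 for Abca1, the highest of the 29, and 0.07 for Srebf1, the lowest. The median was 0.17 over the 29 genes, beside 0.21 over all genes tested, which 8 of the 29 exceeded.

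**Figure D4:**
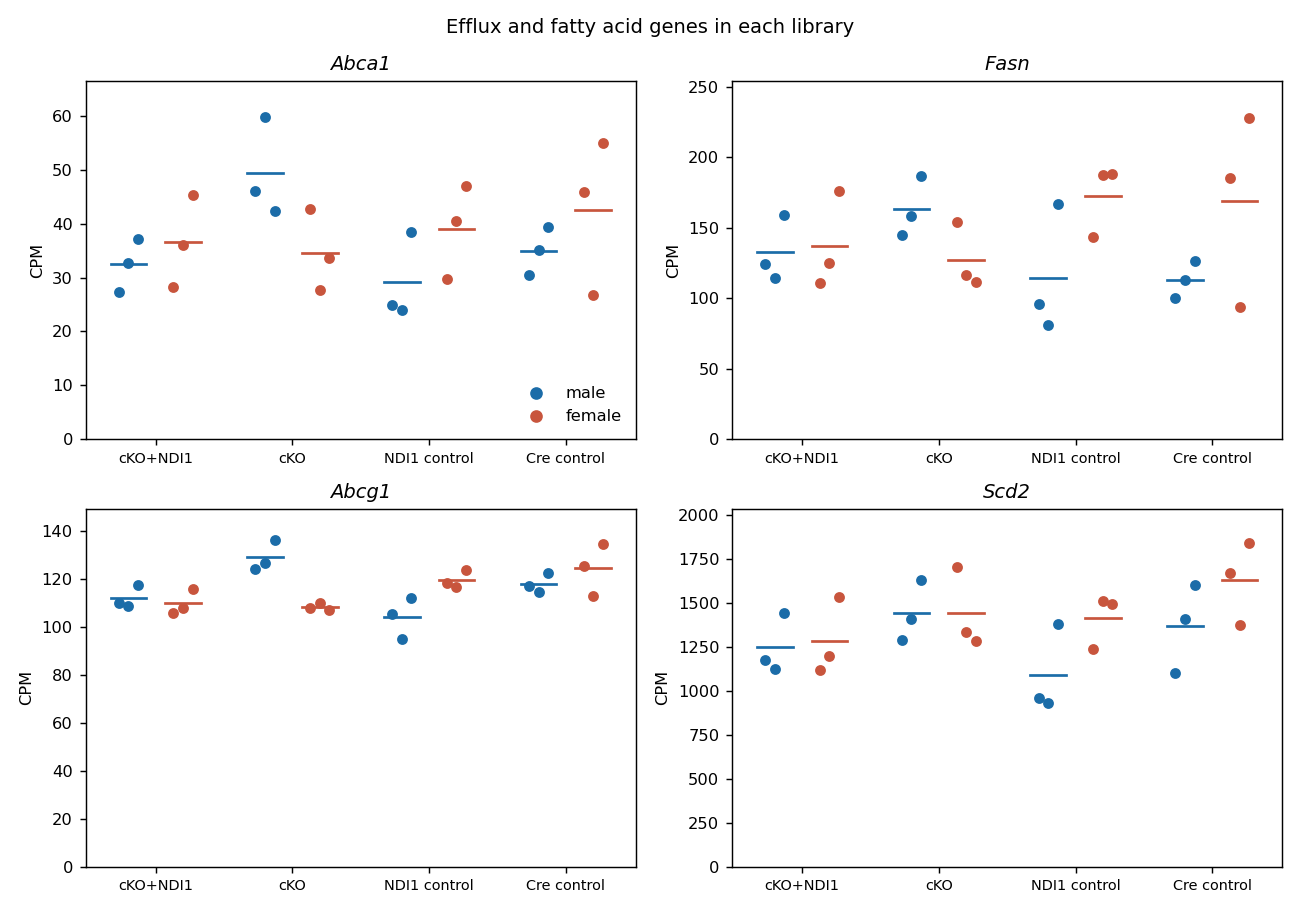
CPM of the export and fatty acid genes in each library by genotype group and sex. The groups overlap for each gene, and Fasn and Abca1 spread widely within groups.

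Srebf1 differed between the sexes and was the only one of the 29 to do so under the test. In cKO+NDI1, males had 69.7, 67.8 and 67.5 CPM and females 56.0, 59.9 and 63.5 CPM. In cKO, males had 72.4, 74.8 and 69.7 CPM and females 55.6, 65.8 and 60.9 CPM. In NDI1 control, males had 64.5, 69.9 and 69.8 CPM and females 62.4, 60.1 and 64.2 CPM, and in Cre control, males had 66.3, 64.5 and 63.2 CPM and females 56.5, 53.9 and 57.7 CPM. All males were above all females within each of the 4 groups, by the narrowest margin in NDI1 control. The log2 fold change of males against females was 0.19 ± 0.04 (edgeR adjusted p = 0.0198). It was 1 of the 29 called, beside 0.085% of all genes, and it was called higher beside 0.0392%. Unadjusted p was under 0.05 for 3 of the 29 (10.3%) beside 16.9%. Over all genes tested, 6 had every male above every female in each of the 4 groups. Srebf1 was the only one of these 6 on an autosome, of 14769 autosomal genes tested (0.00677%). In the other direction, 4 genes had every male below every female in each of the 4 groups, 1 of them on an autosome. Of the 13 genes called between the sexes, 4 were on autosomes. All 7 microglial genes were positive in males against females with a median of 0.20, and 4 had an unadjusted p under 0.05. They summed to 195 to 198 CPM in males and 141 to 157 CPM in females of cKO+NDI1, 159 to 175 CPM and 144 to 177 CPM in males and females of cKO, 150.4 to 167 CPM and 134 to 141 CPM in those of NDI1 control, and 153 to 174 CPM and 139.7 to 166 CPM in those of Cre control. None was at 0 in any library, and their part in the Srebf1 difference was not tested.

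Within single groups of 3 males and 3 females, the cholesterol genes whose sexes did not overlap differed from group to group apart from Srebf1. In cKO+NDI1, males lay above females for Hsd17b7 and Srebf1 (2 of 29, beside 5.32% of all genes) and below for 0 of 29 (beside 5.26%). In cKO, males lay above for Abcg1 and Srebf1 (2 of 29, beside 6.37%) and below for Fdft1, Insig1, Msmo1, Mvk and Nr1h2 (5 of 29, beside 6.5%). In NDI1 control, males lay above for Srebf1 alone (1 of 29, beside 15.6%) and below for Abcg1, Cyp46a1, Dhcr7, Scap and Srebf2 (5 of 29, beside 13.7%). In Cre control, males lay above for Acat2, Ebp, Nsdhl and Srebf1 (4 of 29, beside 6.96%) and below for Hsd17b7 (1 of 29, beside 5.94%).

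The call of Srebf1 held by size factors of DESeq2 style (adjusted p = 0.0264), library size alone (0.042), DESeq2 (7.44e-06), limma-voom (0.016) and with 1 surrogate variable (0.000531). It was lost with no filter on low counts (adjusted p = 0.167) and with counts thinned to the smallest total (0.275). Leaving out each library in turn ended the call in 15 of 24 cases, with an adjusted p of 0.0552 to 0.0717 and a log2 fold change of 0.18 to 0.21 over all 24 cases. Those 15 libraries were cKO+NDI1 M1, M2, M3, F1 and F2, cKO M1, M2 and F3, NDI1 control M2, M3 and F2, and Cre control M1, M2, F1 and F2. Rai1 lies over Srebf1 on the opposite strand at a mean of 49.7 CPM, and its own log2 fold change for males against females was -0.18 ± 0.10 (adjusted p = 0.303).

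**Figure D5:**
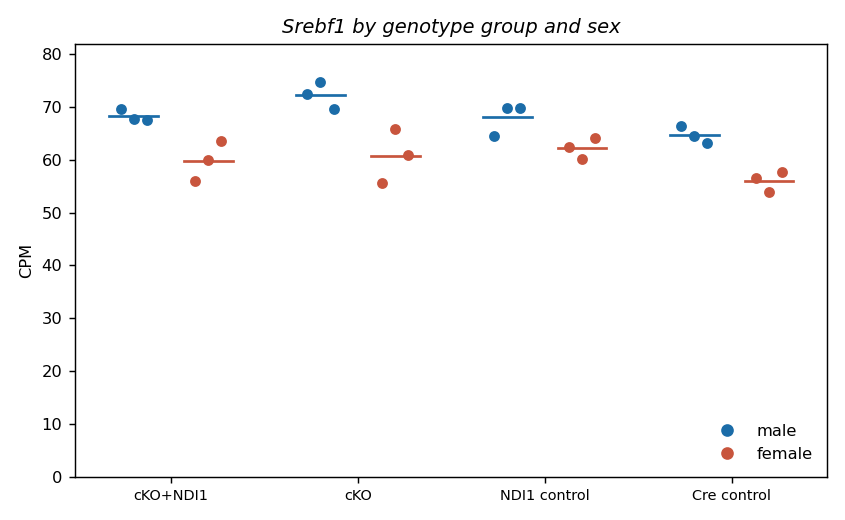
Srebf1 CPM in each mouse by genotype group and sex (points, lines at the mean of 3 mice). Males lie above females in all 4 groups, with the group means at 68.3 and 59.8 CPM in cKO+NDI1, 72.3 and 60.8 in cKO, 68.1 and 62.2 in NDI1 control and 64.7 and 56.0 in Cre control.

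Whether cKO against Cre control differed between males and females was tested for all genes as well. Differences are the male fold change minus the female one, on the log2 scale. By edgeR 0 of the 29 passed, beside 0% of all genes, 9 of the 29 (31.0%) had an unadjusted p under 0.05 beside 20.6%, and DESeq2 and limma-voom called 0. The 3 smallest p belonged to Abcg1, Ebp and Msmo1. Abcg1 had 124, 126 and 136 CPM in cKO males and 108, 109.8 and 107 CPM in cKO females, beside 117, 114 and 122 CPM in Cre control males and 125, 113 and 135 CPM in Cre control females, a difference of 0.33 ± 0.11 (adjusted p = 0.21). Ebp had 39.4, 38.7 and 42.9 CPM in cKO males and 38.0, 42.8 and 48.8 CPM in cKO females, beside 53.5, 48.6 and 41.0 CPM and 34.8, 38.9 and 38.2 CPM in Cre control males and females, a difference of -0.45 ± 0.15 (adjusted p = 0.21). Msmo1 had 56.0, 62.9 and 86.1 CPM in cKO males and 88.8, 96.5 and 95.5 CPM in cKO females, beside 82.9, 104 and 85.2 CPM and 81.3, 86.0 and 89.8 CPM in Cre control males and females, a difference of -0.53 ± 0.19 (adjusted p = 0.21). The Msmo1 values of cKO M1 and M2, at 56.0 and 62.9 CPM, were the lowest of all its 24 libraries.

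Related pathway genes outside the set were examined as lists. Of 11 fatty acid synthesis and desaturation genes, 10 had a negative log2 fold change in cKO against Cre control with a median of -0.10, and 1 fell, beside 1.81% of all genes called lower. That was Fads1, a fatty acid desaturase, at -0.22 ± 0.06 (adjusted p = 0.0491). Of 25 isoprenoid, cofactor and sterol handling genes, 16 had a positive and 9 a negative log2 fold change, with a median of 0.07, and 1 fell. It was Abca8a, a transporter of the same family as Abca1, with 4.19 to 6.05 CPM (median 4.59) in cKO+NDI1, 2.32 to 3.65 CPM (median 2.79) in cKO, 3.52 to 6.02 CPM (median 4.68) in NDI1 control and 3.17 to 6.48 CPM (median 5.36) in Cre control. Its log2 fold change was -0.86 ± 0.18 in cKO against Cre control (adjusted p = 0.00588). Between cKO+NDI1 and cKO it was 0.76 ± 0.18 (adjusted p = 0.0947), with all 6 cKO+NDI1 libraries above all 6 cKO libraries, which held for 0.516% of all genes. In that comparison 0 genes of either list passed by edgeR, and Scd1 had the smallest p of the fatty acid list at -0.32 ± 0.12 (adjusted p = 0.412). Further genes of the pathway were not analysed here.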

How the data were processed

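Cerebellum RNA was polyA selected and sequenced, per the labels' protocols. The deposited table gives raw read counts for each gene in each library, not normalized. The submitters' processing notes name bcl2fastq, Trimmomatic, STAR, HTSeq and the build mm10, per the labels. Versions, annotation and the strand setting are not given in the sources used here. How reads were counted where genes overlap (Srebf1 with Rai1, Fdft1 with Ctsb, Tm7sf2 with Vps51) is therefore not known. The deposited gene length column was not used.

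Group, sex and replicate number of each library were read from the labels, which call the mice biological replicates. Of 43430 genes, 42462 had a symbol. After TMM scaling and filterByExpr by group, 15300 genes entered 1 model of 24 libraries with group and sex, tested with edgeR's quasi-likelihood F test (edgeR 4.0.16, limma 3.58.1, R 4.3.3). The test of the knockout between sexes used a mean for each group and sex. Benjamini-Hochberg adjustment ran over all 15300 genes, with a threshold of 0.05. The standard error is the log2 fold change over the root of F, and the 95% interval uses the normal quantile. CPM used TMM library sizes, and log2 CPM a prior count of 2. DESeq2 1.42.0, limma-voom and sva 3.50.0 were alternatives. Scripts were tested on simulated data.

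Full statistics are given for members that passed in a comparison or, if none, the 3 of smallest p. In other lists up to 3 that passed, or the 1 of smallest p, are named; 1 gene of a marker list is not reported here. The members and lists were chosen with earlier results of these data known, and the motif letters when the search was written. Within groups, all 60 library pairs differed beyond sampling noise (chi-square over degrees of freedom at least 4.68).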

Additional observations from a re-analysis of the deposited data

Results flagged for a closer look

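Of 116 gene and group combinations of 6 libraries each, 3 had a library far from the other 5 by Dixon's test at its 95% critical value, and chance alone flags about 1 in 20, or 5.8. Fdps had its highest value of the cKO+NDI1 group in M1, at 43.2 CPM with the next at 37.9 CPM. Srebf2 had its highest value of the Cre control group in F3, at 166.8 CPM with the next at 133 CPM. Nr1h2 had its lowest value of the cKO+NDI1 group in F3, at 59.1 CPM with the next at 74.1 CPM. That library also had the lowest total count, 7584374.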

How the results depend on the processing

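The count of members called was 0 in each genotype comparison by edgeR and moved in these settings. In cKO against Cre control it was 1 with DESeq2 (beside 7.58% of all genes) and 5 with 1 surrogate variable (beside 20.8%). In cKO+NDI1 against NDI1 control it was 1 with DESeq2 (beside 0.150%) and 1 with 1 surrogate variable (beside 0.366%). In cKO+NDI1 against Cre control it was 2 with 1 surrogate variable (beside 10.4%). In NDI1 control against Cre control it was 3 with 1 surrogate variable (beside 1.75%) and 1 with DESeq2 (beside 0.451%). Male against female gave 1, and 0 with no filter and 0 with thinned counts. Leaving out each library gave 0 to 1 for male against female and 0 for all other comparisons. The cause of these moves was not tested. The promoter search gave 1 gene with the exact sterol element and 9 with 1 mismatch. For the members of smallest p or past the threshold in each comparison, 26 of 751 values crossed the threshold and 0 changed direction. Other members did change direction: over the settings tried, single sexes included, 19 of the 29 took both signs in cKO against Cre control and 21 in cKO+NDI1 against cKO. In cKO against Cre control Fasn ran from -0.42 to 0.52, Msmo1 from -0.41 to 0.12, Cyp51 from -0.35 to 0.14 and Tm7sf2 from -0.11 to 0.41.

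The replicate numbers of the labels did not meet the rule for pairing, which asks that every correlation exceed 0.1. Over 36 pairs of groups and numbers, the correlation of deviations ran from -0.40 to 0.51 with a median of 0.11, and 19 exceeded 0.1. The M3 libraries exceeded it in all 6 pairs of groups (0.19 to 0.51), and 5 of the 6 numbers did between cKO+NDI1 and NDI1 control. A fit with the replicate block called 0 of the 29 members in each of the 6 genotype comparisons. In the edgeR fit, the 95% intervals lay within 0.5 on the log2 scale for 28 of 29 members in cKO against Cre control. They did so for 10 of 29 in the difference between the sexes. Each interval is for 1 gene in 1 fit, with no allowance for the number of genes. The intervals therefore do not bound the 29 genes jointly or the moves between settings.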
